A study of Mus musculus with 31 samples.

Results

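The 10 genes Fos, Fosb, Jun, Junb, Jund, Atf3, Egr1, Ier2, Zfp36 and Dusp1, which belong to the AP-1 and immediate early genes, were followed in sorted bone marrow cells of mice given β-glucan or PBS. They are 10 of the 45706 genes in the count tables. They were chosen by their values in these libraries, that is, by their CPM in the groups and by the differences between β-glucan and PBS and between MPP and HSC. Those differences are therefore given as a description, with a standard error and without the p-value of any of the 10. Where the fits across all genes called members, or gave them an unadjusted p under 0.05, the count is printed beside that over all genes. Nothing is read from such a count in any comparison. The study injected C57BL/6 mice, 10 weeks old, into the peritoneum with β-glucan (1 mg), a polysaccharide of fungal cell walls, or with PBS, and sorted long-term hematopoietic stem cells (HSC) or multipotent progenitors (MPP). HSC were taken 7 days after β-glucan (3 libraries) or PBS (4 libraries), and 28 days after β-glucan (4) or PBS (4). MPP were taken 28 days after β-glucan (4) or PBS (4). In a further set, HSC came from mice given β-glucan (4) or PBS (4), then 150 mg/kg of 5-fluorouracil (5-FU), which kills dividing cells, 7 days later, and sampled 14 days after the 5-FU. No genetic change is named in the labels, and whether a replicate was 1 mouse or a pool is not stated in them.

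Immediate early genes are transcribed within minutes of a stimulus, without new protein synthesis, through MAP kinase, SRF and CREB signalling. Fos, Fosb, Jun, Junb and Jund encode leucine zipper proteins that pair to form the transcription factor AP-1, and Atf3 encodes a related, stress-induced zipper protein. Egr1 encodes a zinc finger transcription factor that restrains proliferation and mobilisation of HSC in mice, and Ier2 a nuclear protein of less defined role. Zfp36 encodes tristetraprolin, which binds AU-rich mRNAs of cytokines and promotes their decay, and Dusp1 a phosphatase that switches off MAP kinases. Many of these mRNAs are short-lived and are also induced when cells are dissociated and sorted.

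The 31 libraries held 19331663 to 39485556 counts each (median 29751430). The labelled cell types were checked against marker genes: the progenitor markers Cd48 and Cd34 stood at 178 ± 5.7 and 303 ± 36.3 CPM in MPP of β-glucan mice at day 28, against 96.8 ± 5.74 and 92.8 ± 4.44 CPM in HSC of the same treatment (SD, n = 4 each), while the stem cell marker Slamf1 stood at 1.39 ± 0.341 CPM in these MPP and 5.3 ± 0.694 CPM in these HSC. Of 14 LT-HSC markers, 9 were lower and 2 higher in these MPP by the calls defined below. Over all genes 18.0% were called lower and 35.6% either way. Ly6a stood at 55.7 ± 4.02 CPM in these MPP and 27.8 ± 3.83 CPM in these HSC. Kit stood at 204.5 ± 24.7 and 171 ± 11.7 CPM, and Meis1 at 69.7 ± 7.5 and 69.1 ± 3.3 CPM, in the same order. Transcripts of mature cells were present in every group, with summed levels of 11 erythroid markers from 2.39% to 21.4% of counts over the libraries. The 13 neutrophil markers summed to 4.68% to 21% of counts. After 5-FU these neutrophil sums were 14.6% to 17.6% in β-glucan mice and 14.2% to 21% in PBS mice. A lower level in such bulk samples cannot be told apart between fewer cells of a type and less RNA per cell. The 3 count tables, 1 each for day 7, day 28 and 5-FU, were scaled separately, so levels set across them are untested, and table, time and treatment cannot be told apart.

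The promoters of 8 of the 10 genes were in the RefSeq table of the mouse build GRCm38.p6, the same assembly as mm10. Ier2 and Egr1 were not in it. The 250 bases before the RefSeq start of 5 genes are printed 5′ to 3′ on the gene's own strand, because Fos, Jun and Junb carried the day 28 difference, Dusp1 was lower in MPP, and Zfp36 was the most abundant of the genes. Capitals mark matches to the motifs searched, on either strand: the cAMP response element CRE (TGACGTCA) and its core (TGACG), the AP-1 site (TGANTCA), the AP-1-like element known from the Jun promoter (TGACATCA), the CArG box bound by SRF, the EGR site (GCGNGGGCG), the Sp1 site (GGGCGG) and the TATA box (TATAAA).
Fos, chr12:85473640-85473889, plus strand: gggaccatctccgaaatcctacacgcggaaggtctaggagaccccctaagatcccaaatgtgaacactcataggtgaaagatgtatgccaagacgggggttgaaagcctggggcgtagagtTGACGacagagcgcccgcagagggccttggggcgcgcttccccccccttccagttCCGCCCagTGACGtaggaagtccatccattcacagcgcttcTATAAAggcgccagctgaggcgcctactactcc
Jun, chr4:95052223-95052472, minus strand: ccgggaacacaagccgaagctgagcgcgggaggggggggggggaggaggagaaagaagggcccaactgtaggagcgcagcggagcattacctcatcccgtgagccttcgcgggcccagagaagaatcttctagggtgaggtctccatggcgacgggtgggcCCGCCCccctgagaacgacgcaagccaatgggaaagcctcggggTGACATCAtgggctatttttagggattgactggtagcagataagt
Junb, chr8:84978749-84978998, minus strand: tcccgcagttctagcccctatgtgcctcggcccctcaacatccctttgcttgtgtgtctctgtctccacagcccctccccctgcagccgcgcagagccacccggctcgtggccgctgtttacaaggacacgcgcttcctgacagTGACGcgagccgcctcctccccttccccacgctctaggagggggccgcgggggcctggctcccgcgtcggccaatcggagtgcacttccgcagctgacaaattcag
Zfp36, chr7:28379229-28379478, minus strand: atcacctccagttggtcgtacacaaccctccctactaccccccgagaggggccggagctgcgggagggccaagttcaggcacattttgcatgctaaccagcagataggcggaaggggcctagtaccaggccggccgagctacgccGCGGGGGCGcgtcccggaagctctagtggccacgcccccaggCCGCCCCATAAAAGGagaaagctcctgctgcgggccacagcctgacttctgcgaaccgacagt
Dusp1, chr17:26508473-26508722, minus strand: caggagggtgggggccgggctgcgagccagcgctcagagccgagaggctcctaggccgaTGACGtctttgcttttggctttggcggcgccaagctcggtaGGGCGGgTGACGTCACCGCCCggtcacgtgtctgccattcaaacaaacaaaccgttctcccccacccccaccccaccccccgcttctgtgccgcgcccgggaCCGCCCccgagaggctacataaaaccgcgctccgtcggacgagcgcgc
The CRE core was the motif with the most matches after the Sp1 site, in 5 of the 8 promoters (Fos, Fosb, Junb, Dusp1 and Atf3), against 17.8% of 32851 promoters of the same length. The Fos promoter held it 129 and 66 bases before the start, and its TATA box 33 bases before. The full CRE was found in Dusp1 alone of the 8, 143 bases before the start, where the core counts on each strand overlap it, and in 1.55% of all promoters. The Jun promoter held its AP-1-like element 45 bases before the start (2.93% of all promoters), and no promoter of the 8 held the AP-1 site itself (6.75%). The CArG box was found in Zfp36 (1.47%), 58 bases before the start, and shared 1 base with a neighbouring Sp1 match. The EGR site was found in Zfp36 and Fosb (4.7%), the Sp1 site in 6 of 8 (32.7%) and the TATA box in Fos (12.4%). These matches describe letters in a short window and do not show that a factor bound there.

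Jun, Junb, Jund and Ier2 each have 1 exon. Fos (ENSMUSG00000021250) lies on chromosome 12 at 85473890 to 85477273 in mm10, Junb (ENSMUSG00000052837) and Ier2 (ENSMUSG00000053560) on chromosome 8 at 84976909 to 84978748 and 84661331 to 84662852, and Jun (ENSMUSG00000052684) on chromosome 4 at 95049034 to 95052222. Zfp36 (ENSMUSG00000044786) lies on chromosome 7 at 28376784 to 28379255 and Dusp1 (ENSMUSG00000024190) on chromosome 17 at 26505590 to 26508519. The library kit does not mark strand. Jun shares exon bases with the antisense gene Junos, which had at most 4.3 CPM in any library, and Jund shares them with Gm11175, which had no counts, so reads over the shared bases cannot be assigned to either gene.

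Levels differed widely among the genes and between the tables. On the scale of CPM per kilobase of exon, in HSC of PBS mice at day 28, Zfp36 came highest at 61.1 ± 4, followed by Ier2 at 5.54 ± 1.19 and Fos at 3.39 ± 0.728. Dusp1 at 1.67 ± 0.285 and Junb at 1.42 ± 0.272 came next and lay within 1 SD of each other, then Jund at 1.01 ± 0.169 and Atf3 at 0.685 ± 0.211. Egr1 at 0.442 ± 0.109 and Jun at 0.401 ± 0.0428 lay within 1 SD of each other, and Fosb came lowest at 0.0205 ± 0.00628 (SD, n = 4 for each). Fosb had only 2 to 13 counts per library at day 28 and after 5-FU, passed the filter on low counts at day 7 alone, and has no fold change elsewhere. Counts of genes tested at day 28 and after 5-FU are therefore of 9.

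Both group means at day 7 were above those of every other group for 9 of the 10 genes. For Fos, Fosb, Jun, Jund, Egr1, Zfp36 and Dusp1 every day 7 library was also above every other library, whereas for Junb and Ier2 replicate 4 of HSC of β-glucan mice at day 28 (10.8 and 35.4 CPM) lay above the lowest day 7 libraries (7.88 and 29.9 CPM). Fos averaged 361 ± 301 CPM in HSC of β-glucan mice (n = 3) and 514 ± 227 CPM in HSC of PBS mice (n = 4) at day 7. At day 28 it averaged 15.5 ± 2.28 and 7.98 ± 1.71 CPM in HSC of β-glucan and PBS mice, and after 5-FU 14.7 ± 1.66 CPM in β-glucan mice and 21.6 ± 5.55 CPM in PBS mice. Egr1 averaged 49.2 ± 38.3 CPM in β-glucan mice and 87.7 ± 17.8 CPM in PBS mice at day 7, against group means of 1.19 to 5.09 CPM in the other tables. Fosb at day 7 averaged 4.44 ± 5.24 CPM in β-glucan mice and 6.6 ± 1.31 CPM in PBS mice, against group means of at most 0.359 CPM elsewhere. Atf3 was the exception, with 2.12 ± 0.291 CPM in β-glucan mice and 1.5 ± 1.24 CPM in PBS mice at day 7 and group means of 0.798 to 2.13 CPM in the other tables. The stem cell genes Hlf and Kit were also higher in that table. They stood at 149 and 569 CPM in HSC of β-glucan mice at day 7, and at 25.1 and 171 CPM in those at day 28. The progenitor markers Flt3 and Cd34 were higher too, at 133 and 428 CPM against 17.8 and 92.8 CPM in the same groups. Slamf1 (11.9 against 5.3 CPM) and Cd48 (129 against 96.8 CPM) differed less. Whether the cell mix, the day or the preparation of that set goes with these levels was not tested.

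**Figure D1:**
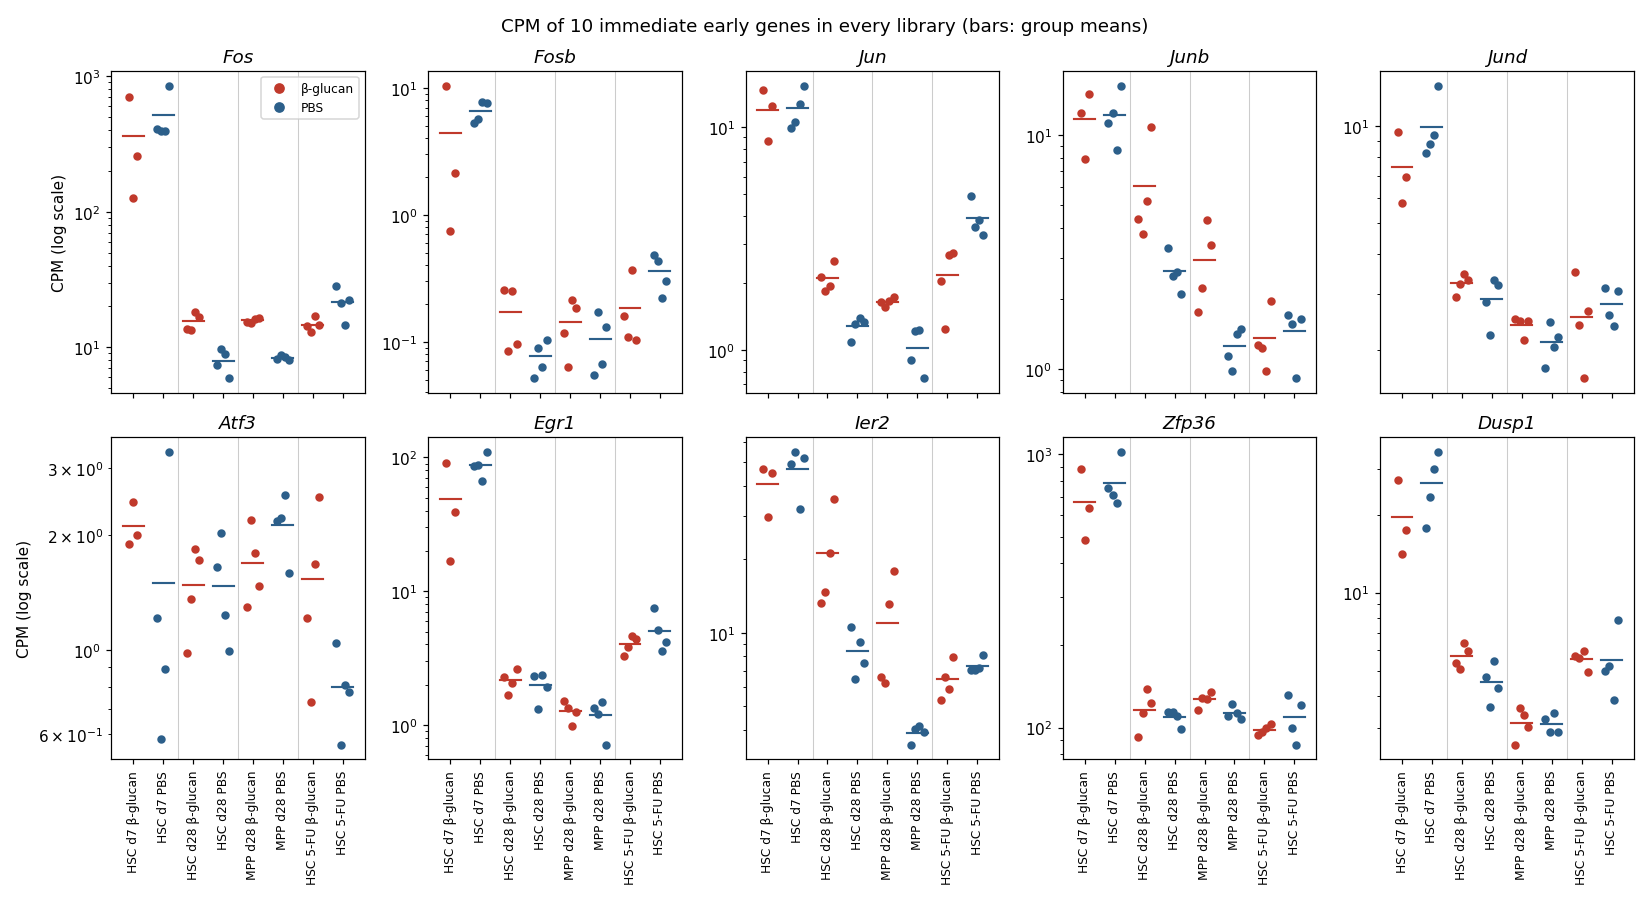
CPM of each gene (log axis) in every library, in 8 groups ordered by day and treatment, with β-glucan (red) left of PBS (blue) and bars at group means. Both day 7 means lie above all other group means for all genes but Atf3, though 1 HSC library of β-glucan mice at day 28 reaches among the day 7 points of Junb and Ier2, and the β-glucan points of Fos, Jun, Junb and Ier2 lie above the PBS points in both cell types at day 28.

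At day 28, Fos, Ier2, Junb and Jun stood higher in HSC of β-glucan mice than in HSC of PBS mice, with no overlap between libraries, while the other genes differed little. Fos had 13.7, 13.5, 18.1 and 16.7 CPM in HSC of β-glucan mice (replicates 1 to 4), against 7.34, 9.77, 8.91 and 5.9 CPM in HSC of PBS mice. Every β-glucan library lay above every PBS library, and the difference was 0.95 ± 0.17 on the log2 scale (all differences below are log2 fold changes ± standard errors). Ier2 had 13.2, 14.6, 21.1 and 35.4 CPM in β-glucan mice, against 10.6, 6.43, 9.16 and 7.55 CPM in PBS mice (1.31 ± 0.28). Replicate 4 of the β-glucan mice was well above the other 3, and the lowest β-glucan library lay just above the highest PBS library. Junb had 4.37, 3.77, 5.25 and 10.8 CPM in β-glucan mice, against 3.3, 2.5, 2.59 and 2.09 CPM in PBS mice (1.19 ± 0.31). The same β-glucan replicate was again the highest, and without it the Junb difference was 0.75 and that of Ier2 0.94. Jun had 2.12, 1.84, 1.94 and 2.52 CPM in β-glucan mice, against 1.08, 1.31, 1.39 and 1.34 CPM in PBS mice (0.71 ± 0.18), at 62 to 79 counts per β-glucan library and 39 to 44 counts per PBS library.

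The remaining genes of HSC at day 28 overlapped between the groups. Dusp1 averaged 5.69 ± 0.584 CPM in β-glucan mice and 4.51 ± 0.767 CPM in PBS mice (0.32 ± 0.16), and Zfp36, the most abundant gene, 116 ± 19.1 and 109 ± 7.17 CPM in the same groups (0.08 ± 0.11). Jund (0.15 ± 0.16), Egr1 (0.11 ± 0.22) and Atf3 (-0.02 ± 0.26) differed by less than their standard errors. Of the AP-1 subunits tested, Fos, Jun and Junb were thus without overlap and Jund was not. A gene is called below when its adjusted p is under 0.05 in edgeR (quasi-likelihood F test, Benjamini-Hochberg over every gene tested). None of the 9 genes tested was called in HSC at day 28, where 0.0374% of 16025 genes were. At an unadjusted p under 0.05 there were 4 of the 9, where 17.0% of all genes passed, and 4 of the 10 were higher without overlap, where 4.31% of all genes were. DESeq2 called Fos, Jun, Junb and Ier2 and 589 genes in all, and limma voom Fos and Jun and 598 genes in all. With PBS replicate 2 left out, edgeR called Fos and 51 genes in all. The main fit called 6 genes in all.

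MPP at day 28 showed the same 4 genes higher in β-glucan mice. Fos had 15.5, 15.2, 16.1 and 16.5 CPM in MPP of β-glucan mice, against 8.14, 8.77, 8.47 and 8.08 CPM in MPP of PBS mice (0.91 ± 0.07). Libraries within each group lay closer together than in HSC, and the groups did not overlap. Ier2 had 6.56, 6.24, 13.1 and 17.8 CPM in β-glucan mice, against 3.48, 4.04, 4.17 and 3.93 CPM in PBS mice (1.48 ± 0.29). Junb had 1.76, 2.23, 4.33 and 3.39 CPM in β-glucan mice, against 1.14, 0.981, 1.42 and 1.49 CPM in PBS mice (1.21 ± 0.27). In both genes replicates 3 and 4 of the β-glucan mice were the highest, as in HSC. Jun had 1.65, 1.57, 1.66 and 1.73 CPM in β-glucan mice, against 0.898, 1.21, 1.22 and 0.746 CPM in PBS mice (0.69 ± 0.19), again without overlap.

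Fos, Junb and Ier2 were called in MPP, 3 of 9 tested and all higher, where 2.72% of 15828 genes were called higher and 4.63% in either direction. The members were chosen on this difference, so the count describes them and supports nothing. DESeq2 called Jun as well, with 1301 of all genes called, against 733 in the main fit. Fos and Ier2 without Junb were called with all groups of the table in 1 fit (309 of all genes called). The same 2 were called with a mean CPM of at least 5 (764 of all genes), which Junb does not reach. Fos, Jun, Junb and Ier2 did not overlap between the groups and were higher, as were 7.11% of all genes. Without any single PBS library, or without β-glucan replicate 3, Fos alone was called, and without β-glucan replicate 4 Fos and Ier2 were. The other genes overlapped: Zfp36 averaged 127 ± 7.88 CPM in β-glucan mice and 113 ± 6.26 CPM in PBS mice (0.16 ± 0.06), and Atf3 1.69 ± 0.396 and 2.13 ± 0.399 CPM in the same groups (-0.34 ± 0.20). Jund (0.17 ± 0.14), Egr1 (0.10 ± 0.23) and Dusp1 (0.01 ± 0.14) lay within 2 standard errors of 0.

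The β-glucan effects in the cell types were set against each other in 1 fit. The effect in MPP minus that in HSC ran from -0.33 for Atf3 to 0.16 for Ier2 over the 9 genes. For Fos it was -0.04 ± 0.18 (95% interval -0.42 to 0.34), and for Junb 0.02 ± 0.41 (-0.84 to 0.88). None of the 9 was called, nor did any pass an unadjusted p under 0.05, by edgeR, and none was called by DESeq2 or limma voom. Over all genes 0.00599% of 16691 were called and 6.19% had an unadjusted p under 0.05.

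Markers of other cells also differed between these groups. In HSC at day 28 no marker gene was called, but 2 sums were lower in β-glucan mice without overlap. The 11 erythroid markers summed to 166900 to 182500 CPM in β-glucan mice and 188800 to 213700 CPM in PBS mice. The 13 neutrophil markers summed to 61590 to 69950 and 71130 to 86350 CPM in the same groups. The 8 stromal and endothelial markers overlapped, at 214 to 368 CPM in β-glucan mice and 162 to 255 CPM in PBS mice. In MPP 7 of 13 neutrophil markers fell and 1 rose. Of the B cell markers 8 of 10 fell, of T and NK cell markers 7 of 10, and of monocyte and macrophage markers 3 of 12. Among megakaryocyte markers 3 of 7 rose, and among stromal and dendritic cell markers 2 of 8 each. In the erythroid list 1 of 11 rose, and in the mast cell list 1 of 7. Over all genes 2.72% were called higher and 4.63% either way. The summed T and NK cell markers overlapped, at 510 to 588 CPM in β-glucan mice and 528 to 586 CPM in PBS mice. The stromal markers summed to 128 to 159 CPM in MPP of β-glucan mice and 114 to 132 CPM in MPP of PBS mice, and no marker of any list was at 0 in a whole group. Their part in the AP-1 values was not tested. Leaving the haemoglobin and neutrophil marker genes out of the fit kept the same calls among the 10 genes in every comparison. That step takes out only the markers' own counts, so it cannot show which cells the counts of the 10 genes came from.

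**Figure D2:**
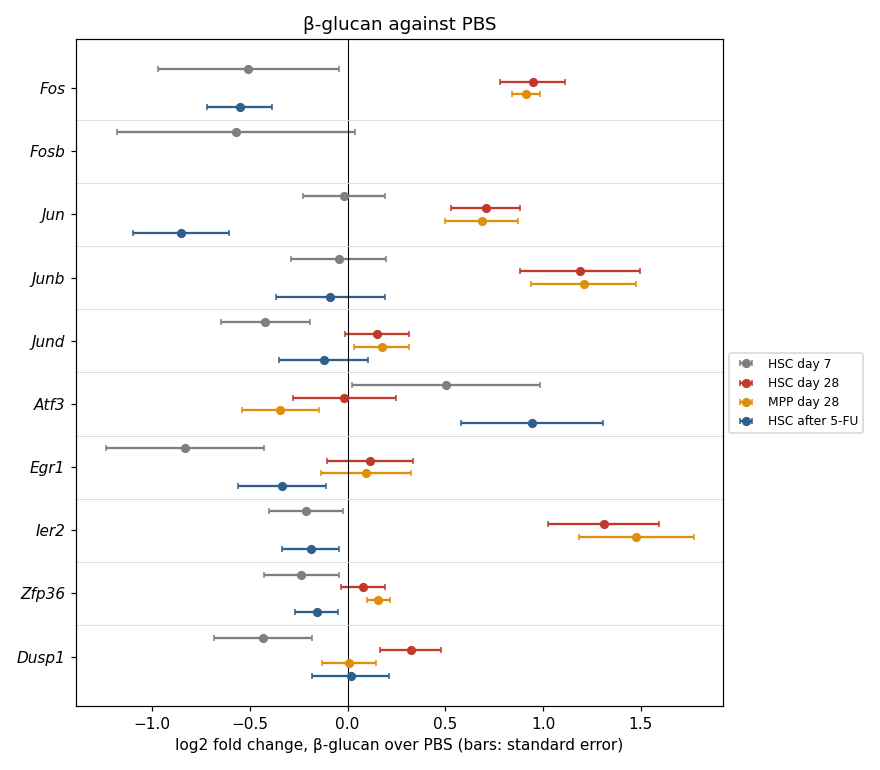
Log2 fold change of β-glucan over PBS for each gene, with standard errors, in HSC at day 7, HSC at day 28, MPP at day 28 and HSC after 5-FU. Fos, Jun, Junb and Ier2 lie between 0.69 and 1.48 in both cell types at day 28 and below 0 in the other 2 sets, and Fosb has a value at day 7 only.

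At day 7 the genes tended to lower values in HSC of β-glucan mice, with libraries spread so widely that every gene overlapped between the groups. Fos had 700.5, 127 and 256 CPM in HSC of β-glucan mice, against 409, 395, 397 and 854 CPM in HSC of PBS mice (-0.51 ± 0.46). The β-glucan libraries lay on both sides of the 3 close PBS libraries, and PBS replicate 4 was far above them. Egr1 had 91.5, 16.9 and 39.2 CPM in β-glucan mice, against 86.5, 87.3, 66.7 and 110.3 CPM in PBS mice (-0.83 ± 0.40). Zfp36 had 885, 485 and 636 CPM in β-glucan mice, against 754, 713, 663 and 1022 CPM in PBS mice (-0.24 ± 0.19). In all 3 genes β-glucan replicate 1 was high and replicate 2 low. Fosb showed the same order, with 10.4, 0.747 and 2.13 CPM in β-glucan mice, against 5.24, 5.7, 7.8 and 7.65 CPM in PBS mice (-0.57 ± 0.61).

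Of the 10 genes, 9 had a negative day 7 value, with a median of -0.33, against -0.01 over all genes tested. Dusp1 (-0.43 ± 0.25), Jund (-0.42 ± 0.23) and Ier2 (-0.21 ± 0.19) were lower by 1 to 2 standard errors, and Jun (-0.02 ± 0.21) and Junb (-0.05 ± 0.24) differed least. Atf3 alone was positive (0.50 ± 0.48). No gene of the 10 was called by edgeR or DESeq2 or had an unadjusted p under 0.05 by edgeR. By edgeR 6.72% of 16403 genes were called and 20.0% had such a p. Limma voom called Egr1, with 1744 of all genes called, against 1102 by edgeR. None was free of overlap, where 18.9% of all genes were in either direction. Without β-glucan replicate 1, Fos was at -1.42, Fosb at -2.20 and Egr1 at -1.64, and edgeR called these 3, with 1252 of all genes called. Without β-glucan replicate 2, in contrast, Fos was at -0.11, Fosb at -0.07 and Egr1 at -0.42, and Jun (0.16) and Junb (0.17) were positive. Without PBS replicate 4, Fos was at -0.15, Junb at 0.12 and Atf3 at 1.22. In the same libraries 9 of 13 neutrophil markers rose (summed 76990 to 122500 CPM in β-glucan mice and 54200 to 62460 CPM in PBS mice), 9 of 11 erythroid markers fell (23940 to 30410 and 65250 to 80990 CPM in the same groups) and 9 of 10 B cell markers fell. Whether these cells carry the differences in immediate early genes was not tested.

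After 5-FU, Fos and Jun stood lower in HSC of β-glucan mice than in HSC of PBS mice. Jun had 2.04, 1.24, 2.66 and 2.73 CPM in β-glucan mice, against 4.92, 3.55, 3.85 and 3.28 CPM in PBS mice (-0.85 ± 0.25). All 4 β-glucan libraries lay below all 4 PBS libraries, at 34 to 79 counts against 76 to 132 counts per library. Fos had 14.5, 12.9, 16.9 and 14.7 CPM in β-glucan mice, against 28.2, 21.1, 14.6 and 22.4 CPM in PBS mice (-0.55 ± 0.17). PBS replicate 3 lay among the β-glucan libraries, and the other 3 PBS libraries lay above them. Atf3 went the other way, with 1.21, 0.729, 1.68 and 2.52 CPM in β-glucan mice, against 1.04, 0.564, 0.807 and 0.777 CPM in PBS mice (0.94 ± 0.36), with overlap between the groups. Its libraries held only 20 to 73 counts in β-glucan mice and 17 to 28 counts in PBS mice.

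For Ier2 and Junb the groups overlapped after 5-FU. Ier2 averaged 6.44 ± 1.15 CPM in β-glucan mice and 7.34 ± 0.525 CPM in PBS mice (-0.19 ± 0.15), and Junb 1.37 ± 0.421 and 1.46 ± 0.366 CPM in the same groups (-0.09 ± 0.28). Egr1 (-0.34 ± 0.23), Zfp36 (-0.16 ± 0.11), Jund (-0.12 ± 0.23) and Dusp1 (0.02 ± 0.20) overlapped too. None of the 9 genes tested was called by edgeR, DESeq2 or limma voom, where edgeR called 0.0446% of 15705 genes. An unadjusted p under 0.05 was found for 3 of the 9, against 7.54% of all genes, and 1, Jun, was lower without overlap, against 2.20% of all genes. The stromal markers summed to 290.1 to 341 CPM in β-glucan mice and 122 to 222 CPM in PBS mice, the mast cell, basophil and eosinophil markers to 3120 to 4442 and 1707 to 2576 CPM, and the erythroid markers to 92930 to 124000 and 136300 to 161700 CPM, in the same groups. Only 1 marker, of the mast cell list, was called, and the part of these cells in the values was not tested.

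The effect after 5-FU minus that at day 28 in HSC was estimated in 1 fit of the 4 groups. It was -1.57 ± 0.32 for Jun, -1.52 ± 0.25 for Fos, -1.52 ± 0.35 for Ier2 and -1.29 ± 0.44 for Junb. For Zfp36 it was -0.25 ± 0.17 and for Atf3 0.94 ± 0.47. The effect at day 28 minus that at day 7 was 1.50 ± 0.38 for Ier2, 1.43 ± 0.55 for Fos, 1.21 ± 0.43 for Junb and 0.70 ± 0.28 for Jun. For 5-FU minus day 28 edgeR called Fos alone of the genes, where 18 of 16985 genes were called. For day 28 minus day 7 it called Ier2 alone, where 866 of 17977 were. The members were chosen on values of these sets, and nothing is read from the calls. These sets come from different tables and also differ in day or in the 5-FU treatment.

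Between the cell types at day 28, Junb, Ier2, Dusp1, Egr1 and Jund stood lower in MPP than in HSC, while Fos and Zfp36 differed little. Jun was lower by a smaller margin, with overlap in PBS mice (-0.33 ± 0.21) and without it in β-glucan mice. Atf3 was higher in MPP of PBS mice, with overlap, and differed by less than its standard error in β-glucan mice. In PBS mice, Ier2 averaged 3.9 ± 0.298 CPM in MPP and 8.43 ± 1.81 CPM in HSC (-1.12 ± 0.16), Junb 1.26 ± 0.24 CPM in MPP and 2.62 ± 0.5 CPM in HSC (-1.07 ± 0.20), and Dusp1 3.11 ± 0.275 CPM in MPP and 4.51 ± 0.767 CPM in HSC (-0.54 ± 0.15). These 3 genes did not overlap between the cell types. Egr1 (-0.74 ± 0.25) and Jund (-0.46 ± 0.17) were lower with overlap. Atf3 averaged 2.13 ± 0.399 CPM in MPP and 1.48 ± 0.455 CPM in HSC of PBS mice (0.51 ± 0.23), and 1.69 ± 0.396 CPM in MPP and 1.48 ± 0.388 CPM in HSC of β-glucan mice (0.20 ± 0.23), with overlap in each. Fos had 8.36 ± 0.322 CPM in MPP and 7.98 ± 1.71 CPM in HSC (0.06 ± 0.15), and Zfp36 113 ± 6.26 CPM in MPP and 109 ± 7.17 CPM in HSC (0.04 ± 0.07).

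In β-glucan mice the order was similar. Dusp1 had 2.59, 3.57, 3.38 and 3.02 CPM in MPP, against 5.35, 5.08, 6.37 and 5.96 CPM in HSC (-0.86 ± 0.14). Egr1 had 1.5, 1.35, 0.987 and 1.25 CPM in MPP, against 2.28, 1.67, 2.06 and 2.64 CPM in HSC (-0.76 ± 0.19). Jun (-0.35 ± 0.15) and Jund (-0.43 ± 0.13) were, with these, the 4 genes without overlap. Junb (-1.05 ± 0.36) and Ier2 (-0.95 ± 0.38) had the widest spread, since HSC replicate 4 held 10.8 and 35.4 CPM of them, and without it the values were -0.61 and -0.58. Fos stood at 15.8 ± 0.6 CPM in MPP and 15.5 ± 2.28 CPM in HSC (0.03 ± 0.11).

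Junb, Jund, Egr1 and Dusp1 were called lower in β-glucan mice (4 of 9 tested, where 18.0% of 15945 genes were called lower and 35.6% either way), and Junb, Ier2 and Dusp1 in PBS mice (3 of 9, where 12.1% of 16122 genes were called lower and 21.7% either way). The members were chosen on these differences too, and nothing is read from the counts. Of the 10 genes, 4 were lower without overlap in β-glucan mice, as were 16.9% of all genes, and 3 in PBS mice, as were 13.2%. Without HSC replicate 4 only Egr1 and Dusp1 were called in β-glucan mice (4605 of all genes called, against 5678). Without HSC replicate 2 Junb, Jund, Egr1, Ier2, Dusp1 and, higher in MPP, Atf3 were called in PBS mice (5050 of all genes called, against 3493). In β-glucan mice Junb was not called without MPP replicate 1, 2 or 4, and Jund not without MPP replicate 3, while Ier2 was called as well without HSC replicate 1 or MPP replicate 4. Without HSC replicate 1 or 3, or MPP replicate 1, 2 or 4, the calls in PBS mice were Junb and Ier2. In these comparisons 9 of 14 LT-HSC markers fell and 2 rose in β-glucan mice, 8 of 13 tested fell and 1 rose in PBS mice, and 6 of 7 megakaryocyte markers fell in each. The 8 stromal markers summed to 128 to 159 CPM in MPP of β-glucan mice and 214 to 368 CPM in HSC of β-glucan mice. The part of cells other than MPP and HSC was not tested.

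**Figure D3:**
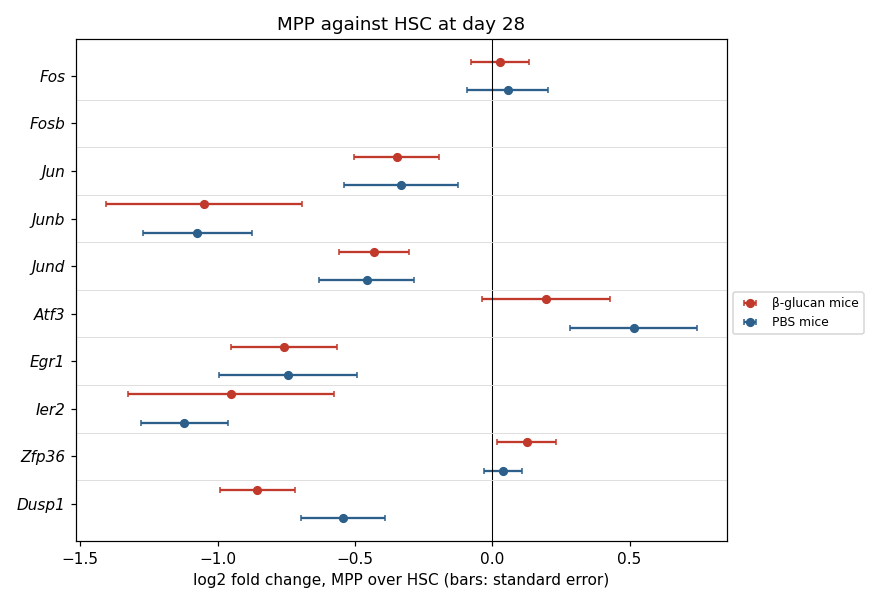
Log2 fold change of MPP over HSC at day 28 for each gene, with standard errors, in β-glucan mice (red) and PBS mice (blue). Junb, Ier2, Egr1, Dusp1 and Jund lie below 0 in both, between -1.12 and -0.43, and Fos and Zfp36 lie near 0.

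The genes also varied together between libraries of the same group, most clearly at day 7. They were chosen with the CPM of these libraries known, so this too is a description. Each library was set against its own group mean on the log2 CPM scale. At day 7, PBS replicate 4 lay above its group mean for all 10 genes (mean deviation 0.51), β-glucan replicate 1 for 9 of 10 (0.64), and β-glucan replicate 2 below it for 9 of 10 (-0.64). At day 28, β-glucan replicate 4 of HSC lay above for 9 of 10 genes (0.25) and replicate 2 below for 9 of 10 (-0.25). After 5-FU, PBS replicate 3 lay below for 9 of 10 genes (-0.31). Deviations outside day 7 were smaller, from -0.31 to 0.27. The share of all genes above or below their group mean in these libraries was not computed, so nothing is read from these counts.

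Over the 31 libraries, deviations of Fos followed the mean deviation of the other 9 genes with Pearson r = 0.88, Zfp36 with r = 0.87, Egr1 with 0.68 and Jun with 0.62. Dusp1 (0.59), Junb (0.52), Fosb (0.51), Jund (0.47) and Ier2 (0.42) followed less closely, and Atf3 least (0.28). Of the 45 pairs of genes 44 had a positive r, with a median of 0.41 and the highest, 0.88, between Fos and Zfp36. Ier2 and Junb formed the next pair (0.79), and Fos and Fosb the third (0.75). The share of positive pairs over all genes was not computed, so nothing is read from the 44. The relation was not equal in the tables. Over the 7 libraries of day 7, r was 0.99 for Fos, 0.98 for Zfp36 and 0.95 for Jund. Over the 16 libraries of day 28 it was 0.47 for Fos, 0.62 for Zfp36 and 0.09 for Jund. Ier2 was highest there (0.72), with Junb at 0.59, Egr1 at 0.11 and Fosb lowest (-0.09). Over the 8 of 5-FU it was 0.88 for Fos, 0.83 for Zfp36 and 0.13 for Ier2. Genes of 1 library share its RNA, its depth and its scaling, deviations within a group sum to 0, and no test was made.

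**Figure D4:**
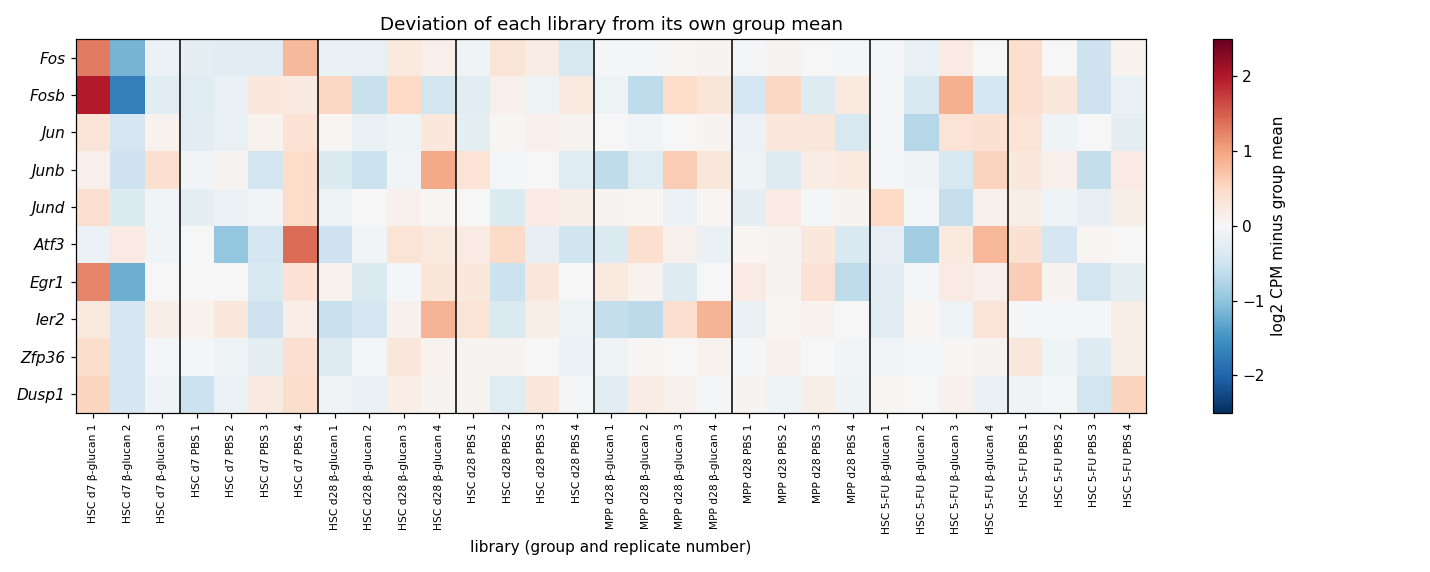
Deviation of log2 CPM from the mean of its own group, for each gene (rows) and library (columns), with β-glucan groups left of PBS groups. At day 7, columns of 1 colour run through nearly all genes in β-glucan replicates 1 and 2 and PBS replicate 4, and at day 28 the strongest colours are those of Junb and Ier2 in β-glucan libraries.

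Among 9171 other expressed genes, those whose deviations were most like the mean of the 10 were Cep76 (r = 0.77 over 31 libraries), Naa50 (0.72), Ubqln2 (0.72), Scoc (0.71), Samd14 (0.71), Gch1 (0.70), Dimt1 (0.70) and Tpt1 (0.70). Cep76 encodes a centrosomal protein, Ubqln2 a ubiquilin of protein quality control and Gch1 the entry enzyme of tetrahydrobiopterin synthesis. Within the tables, Cep76 had r = 0.97 at day 7, 0.37 at day 28 and 0.76 after 5-FU, and Tpt1 0.81, 0.69 and 0.84. None of the 8 is an immediate early gene of the lists used here.

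At day 28, HSC and MPP libraries carry the same replicate numbers. Fos, the closest of the 10 genes, deviated the same way in both cell types in 8 of 8 same-numbered pairs (r = 0.88 between the deviations). Deviations within a group sum to 0, so the 8 pairs are not independent. The same count over all genes was not made. Fos in HSC of PBS mice ran from 5.9 CPM in replicate 4 to 9.77 CPM in replicate 2, and in MPP from 8.08 CPM in replicate 4 to 8.77 CPM in replicate 2, a narrower range with the same order. Ier2 had r = 0.82, with 5 of 8 pairs on the same side, and Zfp36 r = 0.68, with 6 of 8. Among the β-glucan libraries, replicates 3 and 4 had the highest Ier2 in both cell types. Jun (0.32), Junb (0.37) and Egr1 (0.18) followed the number less, and Jund had r = -0.51. The labels do not say whether libraries of the same number came from the same mice or the same day of sorting.

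**Figure D5:**
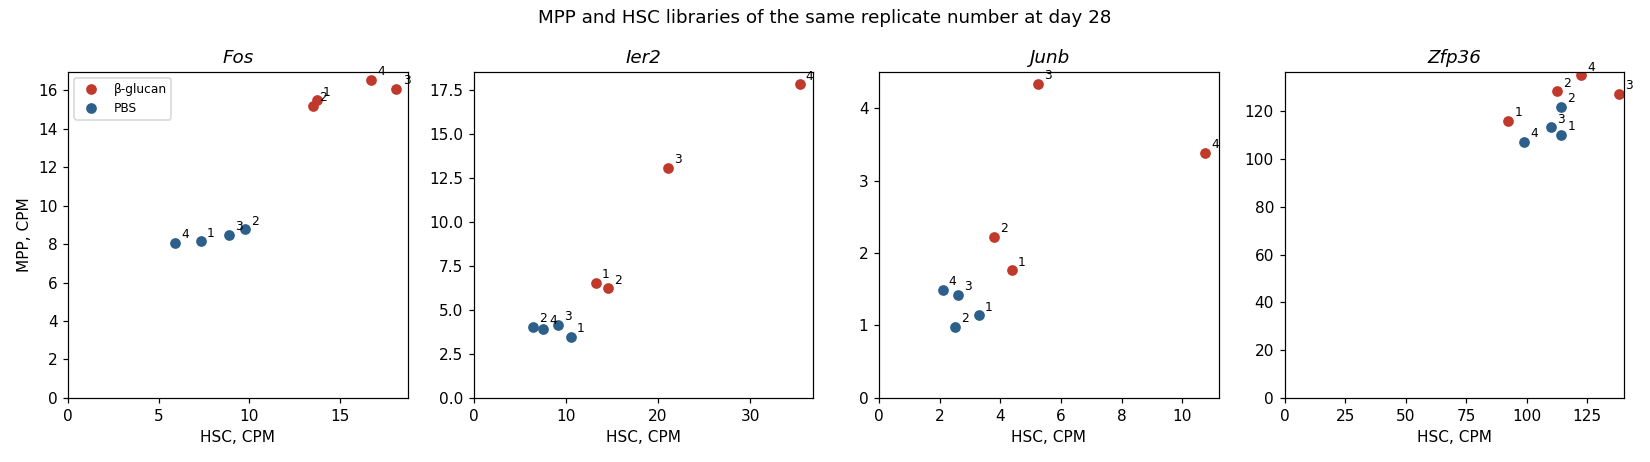
CPM in MPP (vertical) against CPM in HSC (horizontal) at day 28 for Fos, Ier2, Junb and Zfp36, each point 1 replicate number, β-glucan in red and PBS in blue. Fos shows the same order of numbers in both cell types within PBS mice, and Ier2 is highest in β-glucan replicates 3 and 4 of both.

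The lists of other pathway genes were chosen with earlier results of these data known, and calls in them are by edgeR over all genes. Over all genes, 2.72% were called higher and 4.63% either way in MPP at day 28. Of 32 other immediate early genes tested in MPP at day 28, 1 rose and 2 fell: Myc, a growth regulator (0.30 ± 0.07, adjusted p = 0.0297 by edgeR), rose, and the stress phosphatase subunit Ppp1r15a (-0.21 ± 0.05, adjusted p = 0.0263) and the antiproliferative gene Btg2 (-0.26 ± 0.06, adjusted p = 0.0409) fell. Their median was -0.09, against 0.00 over all genes. In HSC at day 28 none of the 32 was called, with a median of 0.09. Of the 13 other AP-1 and bZIP partners tested, none was called in either cell type, with medians of 0.03 in HSC and 0.02 in MPP.

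Upstream of the immediate early genes, 3 of 30 MAP kinase, SRF and CREB regulators rose and 0 fell in MPP of β-glucan mice, where 2.72% of all genes were called higher. The MAP kinase kinases Map2k3, which activates p38, averaged 114 CPM in β-glucan mice and 63 CPM in PBS mice (0.86 ± 0.14), Map2k1, which activates ERK, 22.1 and 13.6 CPM (0.69 ± 0.14), and Map2k7, which activates JNK, 11.2 and 8.43 CPM (0.40 ± 0.09), with adjusted p of 0.00899, 0.0186 and 0.0239 by edgeR. The ERK phosphatase gene Dusp6 fell, at 63.6 CPM in β-glucan mice and 79.7 CPM in PBS mice (-0.33 ± 0.05, adjusted p = 0.0061 by edgeR), as 1 of 7 other MAP kinase phosphatases tested. In HSC at day 28 none of the 30 regulators or 8 phosphatases was called, with medians of 0.13 and -0.11. Of 8 AU-rich mRNAs bound by the Zfp36 protein that were tested in MPP, the chemokine gene Cxcl2 rose (1.33 ± 0.30, at 0.943 CPM in β-glucan mice and 0.364 CPM in PBS mice) and the cytokine gene Il1b fell (-0.39 ± 0.09). Of 14 heat shock and dissociation stress genes tested, Hsph1 alone rose in MPP (0.44 ± 0.04), and none was called in HSC.

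At day 7, where the members themselves were not called, 2 of 33 other immediate early genes rose and 3 fell, with a median of -0.11, where 6.72% of all genes were called either way. Ppp1r15a stood at 195 CPM in β-glucan mice and 388 CPM in PBS mice (-0.99 ± 0.16), Btg2 at 288 and 375 CPM (-0.38 ± 0.07), Bhlhe40, a circadian repressor, at 42.9 and 27.7 CPM (0.63 ± 0.12), and Gadd45b, a stress sensor, at 12.2 and 7.81 CPM (0.64 ± 0.16), each with an adjusted p of at most 0.0346 by edgeR. Btg2 and Ppp1r15a thus fell at day 7 in HSC and at day 28 in MPP. Of 30 regulators, 3 fell, among them Map3k1, a kinase above JNK (-0.54 ± 0.10), and of 7 phosphatases Dusp8 (-1.40 ± 0.22) and Dusp6 (-0.53 ± 0.10) fell. Of 14 heat shock and dissociation stress genes, 3 rose: Mt1, a metallothionein (0.63 ± 0.10), Socs3, an inhibitor of cytokine signalling (1.09 ± 0.22), and the chaperone gene Hspa8 (0.27 ± 0.07). Of 9 mRNAs bound by the Zfp36 protein the chemokine gene Ccl3 fell (-0.58 ± 0.11), and of 13 AP-1 partners none was called. After 5-FU none of the genes of these 6 lists was called.

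Between MPP and HSC the pathway lists held the following calls. In β-glucan mice 17 of 32 other immediate early genes fell and 3 rose in MPP, and 17 of 30 regulators fell and 1 rose, where 18.0% of all genes were called lower and 35.6% either way. In PBS mice 8 of 32 fell and 2 rose, and 5 of 30 regulators fell and 1 rose, where 12.1% of all genes were called lower and 21.7% either way. Klf6, a zinc finger factor, stood at 106 CPM in MPP and 158 CPM in HSC of β-glucan mice (-0.57 ± 0.06) and at 119 and 163 CPM in PBS mice (-0.46 ± 0.09), and Myc went the other way (0.78 ± 0.07 in β-glucan mice and 0.57 ± 0.08 in PBS mice). Among the AP-1 partners, Fosl2 was lower in MPP of β-glucan mice, at 14.7 CPM against 25.6 CPM in HSC (-0.79 ± 0.08), and Batf higher, at 21.9 CPM against 15.4 CPM (0.51 ± 0.08). Map2k3 (-1.04 ± 0.14) and Map2k1 (-0.79 ± 0.10) were lower in MPP than in HSC of PBS mice, with adjusted p of 0.000486 and 0.000305 by edgeR. Dusp8 was lower in MPP in both, by -0.93 ± 0.13 in β-glucan mice and -0.61 ± 0.17 in PBS mice.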

How the data were processed

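RNA-seq libraries (SMARTer Ultra, per the labels' protocols) were made from sorted HSC and MPP of mouse bone marrow. The authors deposited 3 tables of read counts per gene, made with bcl2fastq 1.8.4, featureCounts and the mm10 build, per the submitters' processing notes; for the aligner, none was given in the sources used here. The column names give neither day nor 5-FU: the table of 7 libraries was read as day 7, that of 16 as day 28 and that of 8 as 5-FU, and 1 library titled MPP with an HSC tag was taken by its title. The 10 genes and all gene lists were chosen with earlier results of these data known. Identifiers were matched to symbols for 45143 of 45706 genes.

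Each comparison was fitted on all genes of its groups with edgeR 4.0.16 (R 4.3.3): filterByExpr with a minimum count of 10, TMM scaling, the quasi-likelihood test and Benjamini-Hochberg adjustment at 0.05. CPM were computed on TMM-scaled totals within each table. Log2 CPM used a prior count of 2. Fold changes carry the standard error taken from the test statistic. DESeq2 1.42.0, limma 3.58.1 (voom with quality weights), other filters and scalings, a replicate block and leaving out each library were the alternatives. The scripts were tested on simulated data. Total counts of 19331663 to 39485556 per library set the precision, and genes near 1 CPM rest on few counts. Genes named from a pathway list are among the up to 4 with the smallest p in a comparison where any gene of that list was called, and their values in other comparisons may be named too. Genes most like the members were the 8 with the highest r among 9171 with a mean log2 CPM of at least 2. The labels do not say that replicates came from separate mice, so p-values measure only the spread between these libraries, which may be technical. The replicate numbers did not pair the samples by the rule used here, a correlation over 0.1 in every pair.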

Additional observations from a re-analysis of the deposited data

Results flagged for a closer look

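Single libraries far from the other 3 of their group were found in 3 of 70 groups of values checked, where chance gives about 1 in 20. Fos was 854 CPM in PBS replicate 4 of HSC at day 7, with the others at 395 to 409 CPM. Jund was 2.15 CPM in β-glucan replicate 3 of MPP at day 28, with the others at 2.47 to 2.5 CPM. Ier2 was 8.12 CPM in PBS replicate 4 of HSC after 5-FU, with the others at 7.03 to 7.15 CPM.

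Jun stood out because its libraries did not overlap in opposite directions: its β-glucan effect was -0.85 in HSC after 5-FU, against 0.71 in HSC at day 28 and 0.69 in MPP at day 28 (log2). The estimate of the difference in HSC is -1.57 ± 0.32, and edgeR did not call Jun in that fit. Fos was called there, where 18 of 16985 genes were. Since both genes were chosen by these values, nothing is read from either result. The difference between HSC after 5-FU and MPP at day 28 was not tested.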

How the results depend on the processing

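Of 1022 alternative values of a gene's log2 fold change, 1020 moved by less than 1 spread between replicates. The others were Fosb at day 7 without β-glucan replicate 1 (-2.20) and Atf3 at day 7 with the replicate block (1.25). Leaving out 1 library can seldom move a value by a whole spread, so the count of 1020 shows little. Fos at day 7, at -0.51 in the main fit and -1.42 without β-glucan replicate 1, is among the 1020. The sign changed in 66 of the values, all with a main value no farther than 0.1585 from 0.

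At day 7, 1102 of all genes were called, against 1711 with DESeq2, 1744 with limma voom and 645 with the replicate block, and voom called 1 of the 10. In HSC at day 28, 0 of the 10 were called, against 3 with no filter, 4 with DESeq2, 2 with voom and 4 with all groups in 1 fit. Of all genes 6 were called there, against 182, 589, 598 and 741 under these settings and 14 with the block. In MPP at day 28, 733 of all genes were called, against 1181 with no filter, 1301 with DESeq2 and 309 with all groups in 1 fit. The 3 of the 10 called there (Fos, Junb, Ier2) were joined by Jun with DESeq2, and Junb was not called with all groups in 1 fit and does not reach the mean CPM of at least 5. After 5-FU, 7 were called, against 110 with no filter, 12 with a mean CPM of at least 5, 147 with DESeq2, 42 with voom and 16 with the block. Between MPP and HSC, the 4 of the 10 called in β-glucan mice became 0 with a mean CPM of at least 5, where fewer were tested, and the 3 in PBS mice became 1 there, 5 with voom and 5 with all groups in 1 fit. For the difference of effects, 1 gene was called, against 2 with no filter and 2 with DESeq2.

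Leaving out 1 library gave 0 to 3 of the 10 and 500 to 1252 of all genes at day 7, 0 to 1 and 1 to 51 in HSC at day 28, 1 to 3 and 164 to 1010 in MPP, 0 and 2 to 61 after 5-FU, 2 to 5 and 4605 to 5684 between MPP and HSC of β-glucan mice, 2 to 6 and 2004 to 5050 in PBS mice, and 0 and 1 to 3 for the difference. The cause of these shifts was not tested. The replicate block called 0, 0, 3, 0, 5, 4 and 0 of the 10 over the 7 comparisons in this order. Correlations of same-numbered libraries ran from -0.08 to 0.20, and from 0.09 to 0.20 for MPP against HSC of β-glucan mice. There 4 of 4 MPP libraries correlated best with the HSC library of their own number, against 2 in PBS mice. For β-glucan against PBS this count was 3 in each cell type at day 28, and 0 at day 7 and after 5-FU. Whether the numbers mark pairs is thus not settled. All groups in 1 fit was not run for day 7 and 5-FU, whose tables hold 2 groups. Genes under about 2 CPM are limited by depth.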
